A study of Mus musculus with 3 samples.

Results

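The proteasome genes were described across 3 polyA-selected RNA-seq libraries of effector memory CD4+ alpha-beta T cells. Members were the protein-coding genes of the GENCODE M21 mouse annotation whose symbol begins with Psm, a letter from a to g and a number. The rule gave 50 genes of 55536 in the annotation, or of 22028 that are protein-coding, with 278 annotated transcripts. All libraries came from 1 male C57BL/6J mouse aged 7 months and are technical replicates 1, 2 and 3 of biological replicate 1, so there was 1 group and no second condition. The material was sheared acoustically, with a labelled size range of 100 to 300. SDs below are over the 3 libraries and hold technical spread only, as do the p-values, and no value speaks for a second animal.

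The proteasome is the cell's main protease for proteins tagged with ubiquitin. Its barrel, the 20S core, is made of outer rings of alpha subunits and inner rings of beta subunits, and 3 of the beta subunits carry the active sites. The 19S cap binds the tagged protein, removes the ubiquitin and unfolds the chain with a ring of 6 ATPases. Interferon-gamma and lymphocyte identity are known to favour the immunoproteasome, in which Psmb8, Psmb9 and Psmb10 replace Psmb5, Psmb6 and Psmb7 at the active sites and the activator ring of Psme1 and Psme2 can cap the core, which alters the peptides offered to class I antigen presentation.

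The libraries held 16251564, 14878641 and 14152590 estimated counts. All 5 listed alpha-beta CD4 T cell markers (Cd3e, Cd3d, Cd3g, Trac and Cd4) stood above 10 TPM (a level scaled to transcript length and to the library's total), with a summed level of 5136 to 5818 TPM. The myeloid and dendritic cell list had 1 of 7 at 1 TPM, Cd74 at 5.63 ± 1.09 TPM, and summed to 7.28 to 9.73 TPM. Cd8a stood at 0.043 ± 0.015 TPM and Cd8b1 at 4.16 ± 0.887 TPM. Of the natural killer genes, Ncr1 stood at 0.11 ± 0.092 TPM and Klrb1c at 17.96 ± 4.19 TPM.

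Nearly the whole complex was expressed. Of the 50 proteasome genes, 48 reached 1 TPM in every library, 46 reached 10 TPM and 26 reached 100 TPM. Among all protein-coding genes, 45.5% reached 1 TPM in every library and 32.9% reached 10 TPM. The median proteasome gene stood at 111 TPM, against 28.0 TPM for protein-coding genes that reached 1 TPM. Together the members summed to 6794, 7292 and 6881 TPM in libraries 1, 2 and 3, which was 0.699% ± 0.0266 of all TPM. In bulk RNA, fewer cells with a transcript and less of it per cell cannot be told apart.

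The genes at the top were Psmb8 of the immunoproteasome and the activator genes Psme1 and Psme2. Psmb8 averaged 621 ± 36.0 TPM and Psme1 615 ± 16.4 TPM, ranks 215 and 219 among the 22028 protein-coding genes, and Psme2 averaged 474 ± 4.12 TPM. The 31 constitutive subunits of the core and cap spanned 45.3 to 291 TPM with a median of 128 TPM, a 6.43-fold range. No constitutive subunit reached the level of Psmb8, Psme1 or Psme2 in any library. The other inducible subunits lay within the constitutive range, Psmb9 at 231 ± 5.17 TPM and Psmb10 at 200 ± 17.2 TPM.

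**Figure D1:**
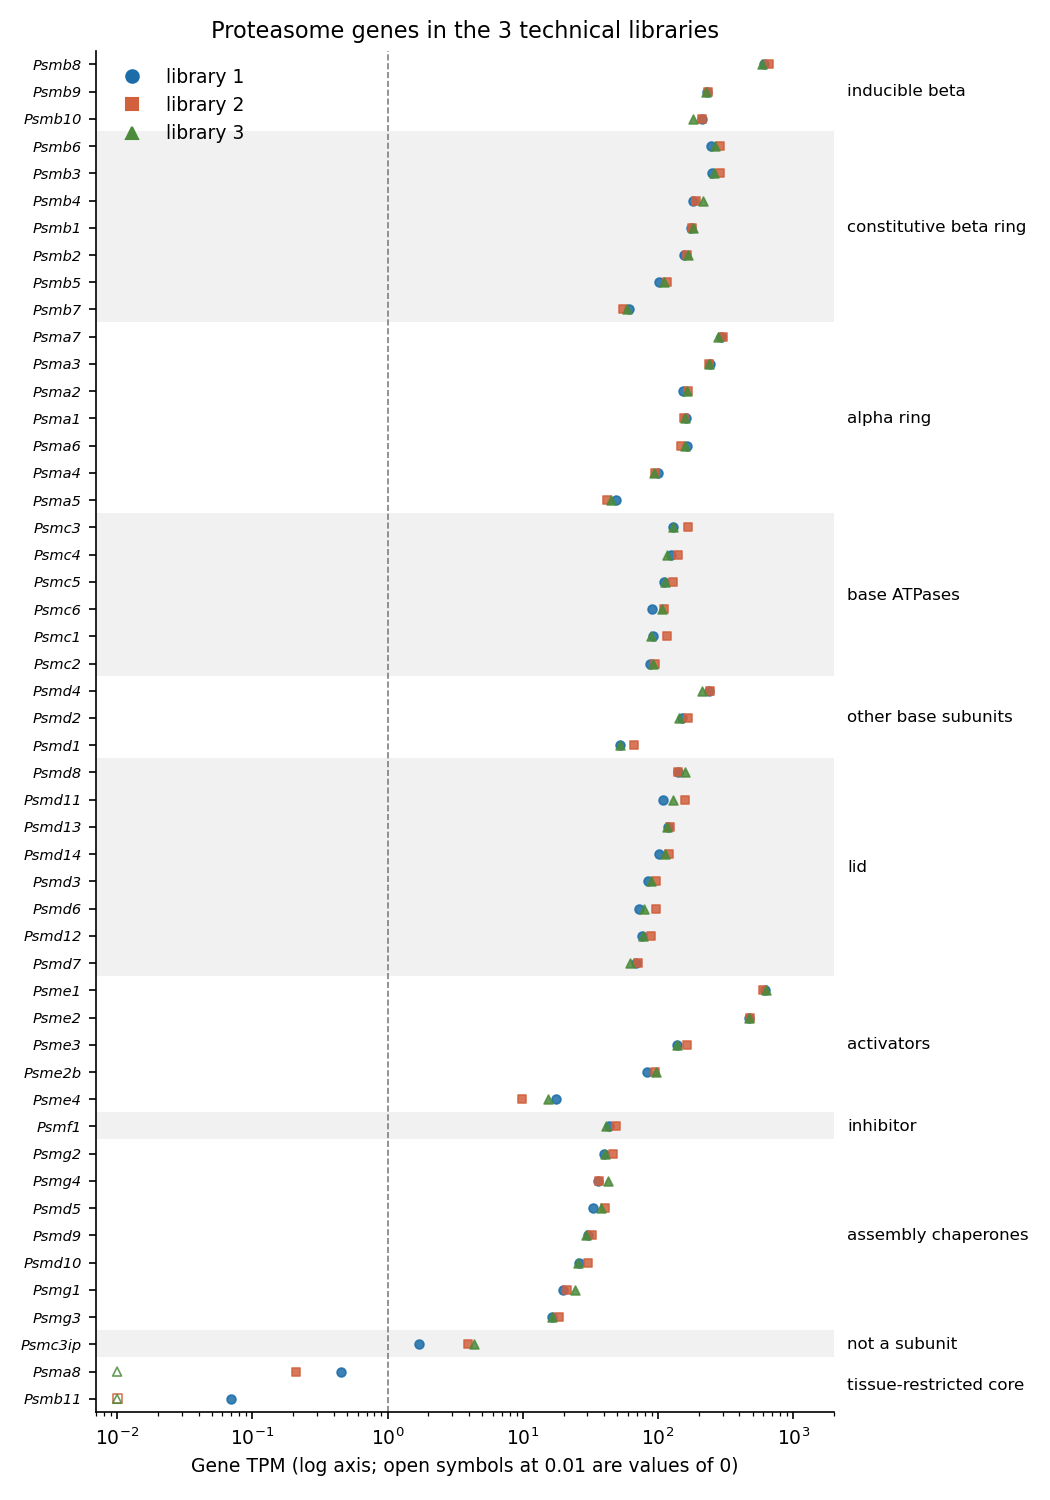
Gene TPM of all 50 proteasome genes, 1 row a gene and 1 symbol a library, on a log axis and grouped by role; the dashed line marks 1 TPM. Psmb8, Psme1 and Psme2 sit furthest right, and Psma8 and Psmb11 are the genes left of the line.

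Psmb8, the inducible subunit that replaces Psmb5 and carries the chymotrypsin-like activity, had 612, 661 and 591 TPM in libraries 1, 2 and 3. Psmb5 had 101, 117 and 111 TPM. The ranges were far apart, and the ratio of Psmb8 to Psmb5 was 6.05, 5.64 and 5.30, a mean of 5.66 ± 0.376.

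Psmb10, the inducible subunit that replaces Psmb7 and carries the trypsin-like activity, had 210, 211 and 181 TPM. Psmb7 had 61.4, 55.1 and 58.7 TPM. Every Psmb10 value lay above every Psmb7 value at the gene level, with ratios of 3.42, 3.83 and 3.08 and a mean of 3.44 ± 0.377. In estimated counts without division by length the mean ratio was 2.27.

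Psmb9, the inducible subunit that replaces Psmb6 and with it most of the caspase-like activity of the core, had 232, 236 and 225 TPM. Psmb6 had 247, 289 and 262 TPM. The pair was close: the ratio of Psmb9 to Psmb6 was 0.938, 0.816 and 0.859, a mean of 0.871 ± 0.062, below 1 in each library. In estimated counts without division by length the direction turned, with ratios of 1.19, 1.00 and 1.07 and a mean of 1.09 ± 0.093. Over the 6 genes, the inducible members summed to 1054, 1107 and 997 TPM and the constitutive members to 409.8, 461 and 433 TPM, so that Psmb8, Psmb9 and Psmb10 held 70.8% ± 1.14 of the TPM.

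**Figure D2:**
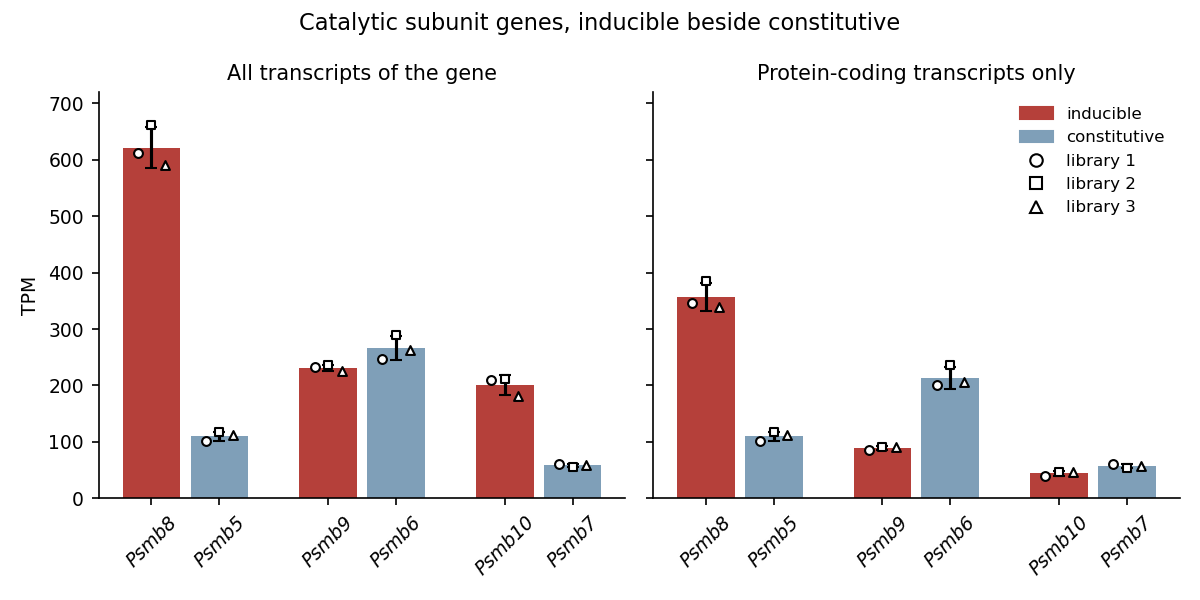
TPM of each inducible gene (red) beside the constitutive gene it replaces (blue), from all transcripts of the gene (left) and from its protein-coding transcripts only (right); bars are means of 3 libraries, error bars SD, and symbols the libraries. Psmb8 stands above Psmb5 in both panels, while Psmb10 stands above Psmb7 only on the left.

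The gene totals did not carry over to the transcripts annotated as protein-coding. Psmb8 had 347, 385 and 339 TPM on its protein-coding transcripts, which was 57.4% ± 0.796 of the gene. Psmb9 had 85.6, 90.8 and 91.8 TPM on them, 38.7% ± 1.91 of the gene. Psmb10 had 39.8, 46.2 and 47.5 TPM, 22.4% ± 3.69 of the gene. The constitutive genes kept most of their TPM on protein-coding transcripts, with 100% for Psmb5, 80.4% ± 1.89 for Psmb6 and 98.1% ± 0.760 for Psmb7. Psmb5 has 2 annotated transcripts, of which 2 are protein-coding, so its 100% was fixed by the annotation. Protein-coding were 1 of 4 transcripts of Psmb6 and 1 of 2 of Psmb7. They were 3 of 7 in Psmb8, 3 of 7 in Psmb9 and 1 of 7 in Psmb10. How far these numbers of annotated transcripts shape the shares was not tested.

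On protein-coding transcripts alone, Psmb8 exceeded Psmb5 by a ratio of 3.25 ± 0.195. The ratio of Psmb9 to Psmb6 was 0.419 ± 0.032. The ratio of Psmb10 to Psmb7 turned round, at 0.656, 0.853 and 0.830 in libraries 1, 2 and 3, a mean of 0.780 ± 0.108. The inducible share of the 6 genes was then 56.3% ± 0.258. On transcripts with a consensus coding sequence (CCDS) alone, an alternative added after seeing the data, the ratio of Psmb8 to Psmb5 turned round to 0.113 and the inducible share of the 6 genes was 18.2%. The single such transcript of Psmb8, Psmb8-201, held 2.01% of the gene. Counted without division by transcript length, protein-coding transcripts held 43.5% ± 1.17 of the estimated counts of Psmb8, 27.7% ± 0.431 of those of Psmb9 and 37.4% ± 5.40 of those of Psmb10.

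Most other TPM of the inducible genes lay on transcripts annotated as retained intron or as targets of nonsense-mediated decay, the pathway that removes messages with an early stop. The exception was Psmb10-203, annotated as a processed transcript, with 14.95, 3.97 and 23.2 TPM or 7.28% ± 5.48 of Psmb10. In Psmb8, the retained-intron transcript Psmb8-205 (1234 bases) had 238, 259 and 232 TPM, beside 235, 256 and 245 TPM for the leading protein-coding transcript Psmb8-203 (840 bases). The pair was level, at 39.1% and 39.6% of the gene on average. The protein-coding Psmb8-204 held 15.8% and has 358 bases in 4 exons, against 1628 bases in 6 exons for the CCDS transcript Psmb8-201. The protein-coding share of Psmb8 thus counts a short model and is not a share of full-length message. In Psmb8-205, 190 bases lie outside the exons of the CCDS transcript and form 1 whole intron. This intron lies on the plus strand at chr17:34199381-34199570 (GRCm38, GENCODE M21). Psmb8-205 also lacks bases of the CCDS transcript, being shorter than Psmb8-201.

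In Psmb10, the retained-intron transcripts Psmb10-205 (554 bases) and Psmb10-204 (898 bases) led with the CCDS transcript Psmb10-201 (1311 bases). Psmb10-205 had 91.4, 93.7 and 55.8 TPM, Psmb10-204 had 56.6, 41.6 and 32.3 TPM, and Psmb10-201 had 39.8, 46.2 and 47.5 TPM. Library 3 was lowest for both retained-intron transcripts and highest for the coding one. Psmb10-204 keeps a whole intron of 112 bases on the minus strand at chr8:105937382-105937493, and Psmb10-205 begins 57 bases inside an intron at chr8:105936982-105937038.

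The intron bases of these models, which lie outside the exons of the CCDS transcript, are shown. The models are also shorter than the CCDS transcripts. The part of either difference in the inducible levels was not tested. Capitals mark the GT that opens an intron and the AG that closes it.

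Psmb8-205: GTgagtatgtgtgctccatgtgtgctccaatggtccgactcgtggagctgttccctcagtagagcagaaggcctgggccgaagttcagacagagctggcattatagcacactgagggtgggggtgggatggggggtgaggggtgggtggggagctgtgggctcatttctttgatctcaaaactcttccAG

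Psmb10-204: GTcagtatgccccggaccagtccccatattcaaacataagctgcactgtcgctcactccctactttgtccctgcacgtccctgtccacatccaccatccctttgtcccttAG

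Psmb10-205: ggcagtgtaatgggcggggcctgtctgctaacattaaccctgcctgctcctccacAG

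The Psmb8 and Psmb10-204 stretches run from GT to AG and so hold complete introns, while the Psmb10-205 stretch holds only the closing AG. These stretches are a small part of each model: 15.4% of the bases of Psmb8-205, 12.5% of Psmb10-204 and 10.8% of Psmb10-205 lie outside the CCDS exons. Their remaining bases are shared with exons of the coding transcript. The deposited posterior SD of the count, the uncertainty of that sharing, reached 2.77% of the count for Psmb8-205 and 3.79% for Psmb8-203, against 19.1% for Psmb10-205, 24.7% for Psmb10-204 and 9.63% for Psmb10-201.

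In Psmb9, the leading transcript was Psmb9-207, annotated for nonsense-mediated decay, with 86.3, 92.4 and 83.2 TPM or 37.8% ± 1.26 of the gene. The coding Psmb9-202 (433 bases, 2 exons) had 53.6, 63.0 and 62.5 TPM, 25.85% of the gene on average. The CCDS transcript Psmb9-204 (1352 bases, 6 exons) had 29.9, 26.9 and 26.5 TPM. All 3 libraries gave the same order. The protein-coding share of Psmb9 likewise counts a short model and is not a share of full-length message. Of the 1025 bases of Psmb9-207, 126 lie outside the exons of the CCDS transcript, as 1 internal stretch at chr17:34184156-34184281.

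**Figure D3:**
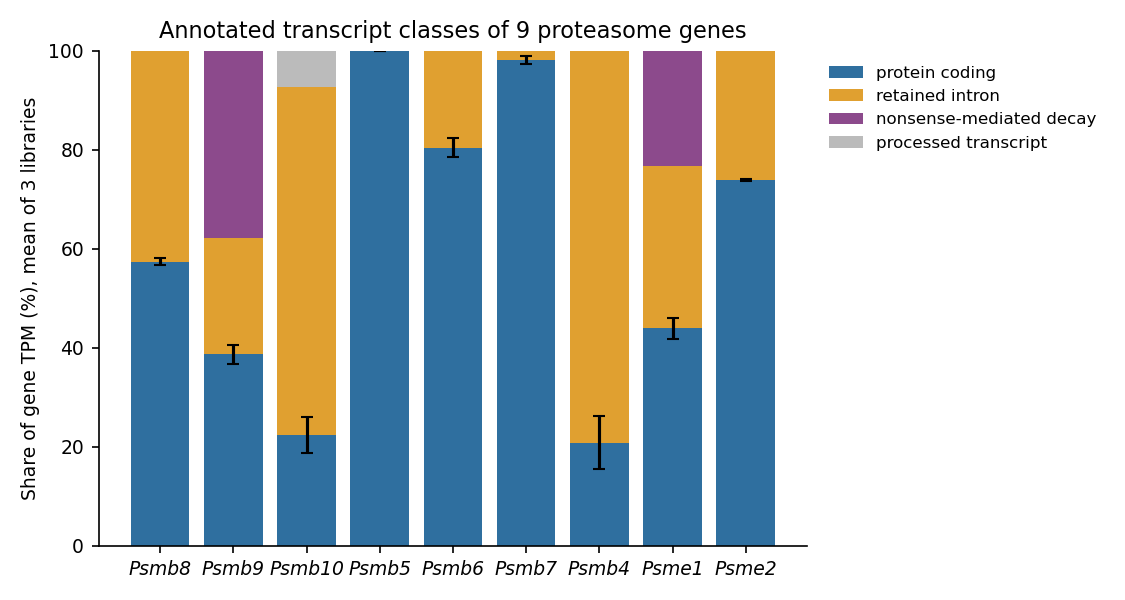
Share of gene TPM on each class of annotated transcript for the 6 catalytic genes, Psmb4, Psme1 and Psme2; bars are means of 3 libraries and error bars the SD of the protein-coding share. Protein-coding transcripts hold 22.4% of Psmb10 and 100% of Psmb5, which has no annotated transcript of another class.

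A low protein-coding share was not general among the proteasome genes. Of 7544 protein-coding genes with a mean of 10 TPM or more, 17.1% had under 50% of their TPM on protein-coding transcripts, and the median share was 83.6%. Among the 47 proteasome genes at that level, 6 were under 50%, which is 12.8%, and the median share was 84.0%. The 6 were Psmb4, Psmb10, Psmc6, Psmb9, Psme1 and Psma3. In estimated counts without division by length, the share of Psmc6 was 66.3%, and the others stayed under 50%. A share below that of Psmb10 was found in 5.34% of the 7544 genes, below that of Psmb9 in 11.3% and below that of Psmb8 in 21.9%. The 7544 include genes without an annotated retained-intron transcript. Among the 5050 genes with one, 21.6% were under 50% and the median share was 75.9%. The 32 proteasome genes with one had a median share of 80.1%.

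**Figure D4:**
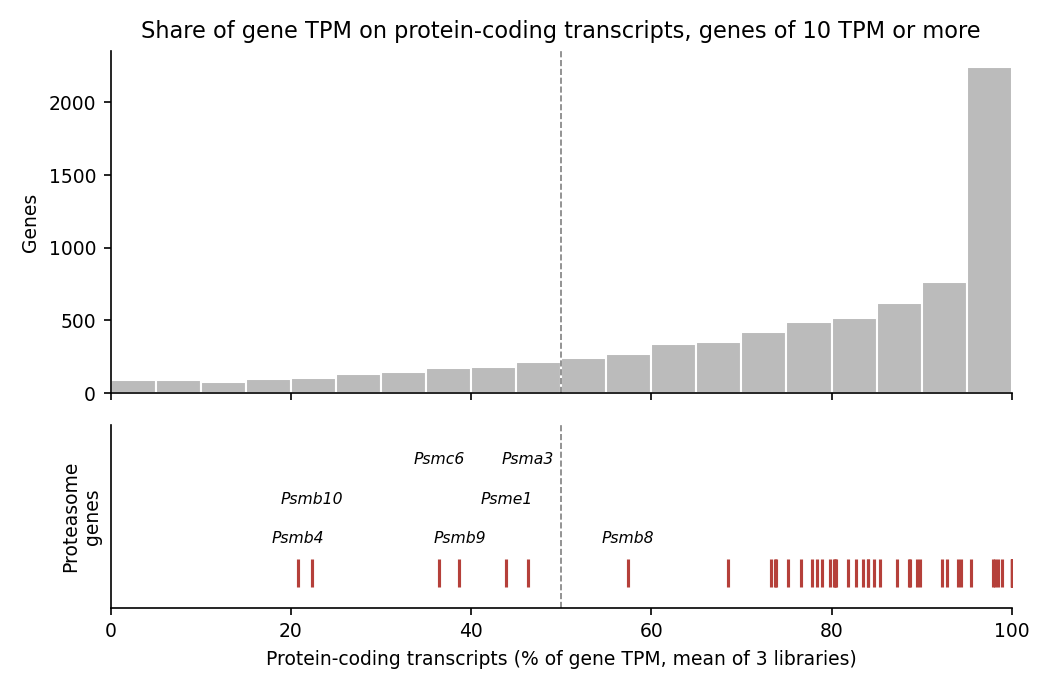
Distribution of the share of gene TPM on protein-coding transcripts over 7544 protein-coding genes (upper panel, bins of 5 percentage points) and the proteasome genes as ticks (lower panel); the dashed line marks 50%. Psmb4 and Psmb10 are the lowest proteasome genes, at 20.8% and 22.4%.

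The leading transcript held a median of 73.3% of its gene over the 48 members that reached 1 TPM, and over 90% in 9 of them. It was not protein-coding in 4 members: Psmb9, Psmb10, Psmb4 and Psme1. It held under 50% in 11 members, which were these 4 with Psmb8, Psmc6, Psma3, Psmd11, Psmd13, Psmd4 and Psmc3. In the last 4 the leading transcript was protein-coding, with 40.2% ± 9.21 for Psmd11-214, 45.7% ± 2.46 for Psmd13-208, 45.8% ± 5.95 for Psmd4-201 and 48.7% ± 9.02 for Psmc3-202.

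Reference promoters were searched for 5 short motifs on both strands over the 250 bases before the annotated start (RefSeq, GRCm38.p6), with entries for 42 of the 50 members and 27025 genes in all. The interferon regulatory factor motif GAAANNGAA was found in 3 of 42 members, Psmb3, Psmd4 and Psmd9, against 8.18% of all genes. None of the 3 inducible genes held it in this window. The palindromic STAT motif TTCNNNGAA was found in Psmb8 and Psmg1, 2 of 42, against 8.13% of all genes. The Psmb8 and Psmb9 windows lie wholly inside exons of the GENCODE M21 CCDS transcripts, as do 52 of 250 bases of the Psmb10 window, so for these genes a match or its absence concerns partly or wholly transcribed bases. The Psmb8 match is shown in capitals with its flanks, on the plus strand at chr17:34198088-34198116.

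Psmb8: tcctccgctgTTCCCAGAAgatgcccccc

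The antioxidant response motif TGACNNNGC is bound by the Nfe2l1 and Nfe2l2 family that drives constitutive proteasome genes. It was found in 5 of 42 members, 11.9%, a share near the 11.5% of all genes. The 5 were Psmb5, Psmb6, Psmc6, Psmd12 and Psmd9, and Psmb7 had no entry. The windows of the inducible genes held no match, but they lie wholly (Psmb8, Psmb9) or partly (Psmb10) in exons. The Psmb5 window lies on the minus strand at chr14:54617996-54618245 and the Psmb6 window on the plus strand at chr11:70525107-70525356. Each ends 1 base before the annotated start, 27 bases of the Psmb5 window lie in an exon of its CCDS transcript, and capitals mark matches to any of the 5 motifs.

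Psmb5: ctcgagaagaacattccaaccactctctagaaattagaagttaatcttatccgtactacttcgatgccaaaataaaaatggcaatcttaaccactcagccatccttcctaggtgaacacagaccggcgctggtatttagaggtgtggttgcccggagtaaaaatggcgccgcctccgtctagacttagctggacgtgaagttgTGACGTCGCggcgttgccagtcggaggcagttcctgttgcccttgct

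Psmb6: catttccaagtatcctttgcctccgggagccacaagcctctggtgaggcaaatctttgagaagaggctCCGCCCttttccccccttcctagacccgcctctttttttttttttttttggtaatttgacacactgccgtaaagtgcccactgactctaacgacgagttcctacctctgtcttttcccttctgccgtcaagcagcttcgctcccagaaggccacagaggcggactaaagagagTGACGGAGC

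In Psmb5 the capitals mark the antioxidant response motif, and in Psmb6 the first run is GGGCGG read on the other strand and the last is the antioxidant response motif. GGGCGG, the core of an Sp1 site, was found in 22 of 42 members, 52.4%, against 35.4% of all genes, and CCAAT in 15 of 42, 35.7%, against 37.5%. Of the inducible genes, Psmb9 held both GGGCGG and CCAAT and Psmb10 held none of the 5 motifs. A match to so short a motif does not show a bound site.

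The alpha ring, which gates the core, had a median of 158 ± 3.08 TPM over its 7 genes. Psma7 was highest with 291, 305 and 278 TPM, and Psma5 lowest with 48.6, 42.2 and 45.1 TPM. Every library put Psma7 above Psma5 by more than the spread of either gene. The 7 constitutive beta subunits had a median of 178 ± 2.06 TPM, with Psmb6 and Psmb7 as highest and lowest. Psmb3, a structural beta subunit without an active site, had 249, 289 and 257 TPM and overlapped Psmb6. Psmb4, another structural beta subunit, had 181, 191 and 215 TPM as a gene but 40.2 ± 6.87 TPM on its 1 protein-coding transcript, with 79.2% of the gene on retained-intron transcripts. Of the 666 bases of its leading transcript Psmb4-202, 19 lie outside the CCDS exons, and the posterior SD of its count reached 8.15%.

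The 17 subunits of the 19S cap had a median of 112 TPM, against 161 TPM for the 14 constitutive core subunits. The 6 base ATPases, which thread the substrate into the core, had a median of 111 ± 10.8 TPM, and their means over the libraries spanned 1.56-fold. Psmc3 was highest with 129, 168 and 130 TPM, and Psmc2 lowest with 87.4, 94.9 and 92.0 TPM. Psmc3 lay above Psmc2 in each library, and its value in library 2 stood apart from its other values. Psmc6 had 90.2, 110.2 and 106 TPM as a gene, of which 36.5% ± 1.51 was on its 1 protein-coding transcript.

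Among the other base subunits, the ubiquitin receptor Psmd4 had 237, 241 and 213 TPM and the scaffold Psmd1 had 52.4, 66.5 and 52.3 TPM. The remaining base scaffold, Psmd2, stood between them at 153 ± 11.9 TPM. The lid, which removes ubiquitin, had a median of 101 ± 7.998 TPM over 8 genes. Psmd8 was highest with 142, 141 and 157 TPM, and Psmd7 lowest with 68.4, 70.6 and 62.3 TPM. Psmd14, the deubiquitinase of the lid, averaged 112 ± 9.74 TPM.

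The activators differed most among themselves. Psme1, which forms the interferon-induced ring together with Psme2, had 613, 600.2 and 633 TPM. Psme2 had 469.6, 478 and 474 TPM. The ratio of Psme1 to Psme2 was 1.31, 1.26 and 1.33, a mean of 1.30 ± 0.039. In the second deposited gene table, whole-number counts without division by length, it was 2.56 ± 0.033. On protein-coding transcripts it turned round to 0.773 ± 0.057, since 43.9% ± 2.18 of Psme1 and 73.8% ± 0.244 of Psme2 lay on them. The leading transcript of Psme1 was Psme1-209 (439 bases), annotated for nonsense-mediated decay, with 23.4% ± 2.07 of the gene and a posterior SD of up to 10.4%. The leading transcript of Psme2 was the coding Psme2-201 with 70.9% ± 1.46.

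Psme3, which forms a nuclear activator ring, had 137, 165 and 138 TPM. Psme4, a large monomeric activator known for histone breakdown in the testis, had 17.6, 9.88 and 15.4 TPM. Library 2 was highest for Psme3 and lowest for Psme4, by 1.78-fold between its extremes in TPM. In normalised counts Psme4 had 552, 508 and 534, a 1.09-fold range, so the TPM spread was larger than the count spread.

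Psme2b, an annotated protein-coding copy of Psme2 in 1 exon at chr11:48945354-48946190, had 82.8, 95.0 and 96.9 TPM. The coding sequences of Psme2-208 and Psme2b-201 are 717 bases long, differ at 5 bases (99.3% identity) and share a run of 311 identical bases. Bases 394 to 543 of each coding sequence are shown, with the 3 differing bases in capitals, because reads without such a base cannot be placed in 1 gene.

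Psme2: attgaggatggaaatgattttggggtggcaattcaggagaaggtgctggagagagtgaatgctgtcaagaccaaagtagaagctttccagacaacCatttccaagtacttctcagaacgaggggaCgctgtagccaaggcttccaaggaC

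Psme2b: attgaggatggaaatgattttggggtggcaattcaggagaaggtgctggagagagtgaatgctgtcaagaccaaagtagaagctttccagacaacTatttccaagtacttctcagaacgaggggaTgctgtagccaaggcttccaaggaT

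The stretch differs at only 3 of 150 bases, and the level of Psme2b is therefore uncertain. The posterior SD of its count reached 5.11%, against 1.15% for Psme2. Adding Psme2b to Psme2 brought the ratio of Psme1 to the sum to 1.09 ± 0.035. Psme1 at chr14:55578123-55581529 and Psme2 at chr14:55587441-55591113 are neighbours, 5911 bases apart.

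The inhibitor Psmf1 had 43.3, 48.7 and 41.1 TPM. The 7 assembly chaperones, which build the core (Psmg1 to Psmg4) or the base (Psmd5, Psmd9, Psmd10) and leave it, had a median of 30.8 ± 1.72 TPM. Psmg2 was highest with 40.0, 46.8 and 40.5 TPM, and Psmg3 lowest with 16.4, 18.4 and 16.6 TPM. No chaperone reached the level of the lowest core subunit, Psma5, on average. Psmc3ip, a meiotic recombination factor that matches the rule by its symbol but is no subunit, had 1.7, 3.92 and 4.34 TPM.

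Both tissue-restricted core genes were at or near 0. Psma8, known from the testis, had 0.45, 0.21 and 0 TPM from 5 counts in all. Psmb11, the catalytic subunit of the thymus cortex, had 0.07, 0 and 0 TPM from 3 counts in all, each of them in library 1. Psmb11 lies 3410 bases from Psmb5 on chromosome 14.

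Psmb8 and Psmb9 lie in the class II region of the mouse MHC, within 19468 bases of each other at chr17:34181987-34201454. Tap1 lies between them and Tap2 next to Psmb8, 2072 bases away; these encode the pump that carries peptides into the endoplasmic reticulum. Tap1 had 170, 176 and 156 TPM, and Tap2 had 212, 238 and 198 TPM. All 4 neighbours stood between 156 and 661 TPM in every library. Psmb9 and Tap1 overlap by 212 bases on opposite strands. In all, 24 members overlap another annotated gene and 19 overlap one on the opposite strand. Whether reads were counted by strand is not stated, so reads in the shared bases of such pairs cannot be told apart. An opposite-strand partner stood at 10 TPM or more for 5 members and at 1 TPM or more for 10. On the same strand, Psmd13 overlaps the processed pseudogene Gm15542, which stood at 229 ± 13.6 TPM. Psme2b overlaps Gm12185, at 1.24 ± 0.229 TPM, over 837 bases. The antisense genes over Psmb8 (Gm20496) and Psmb10 (Gm16156) stood at 4.79 ± 2.08 and 0.35 ± 0.304 TPM.

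Genes that work with the proteasome were read from a list of 34, of which 33 matched a symbol and 31 had 10 TPM or more. Among direct partners, the core maturation factor Pomp was highest at 168 ± 5.85 TPM and the adaptor Ecpas lowest at 41.5 ± 4.03 TPM. Among the regulators, Nfe2l2 was highest at 107 ± 12.7 TPM and Ddi2, the protease that activates Nfe2l1, lowest at 27.3 ± 5.84 TPM. In the class I route, the interferon regulatory factor Irf1 was highest at 339.7 ± 26.0 TPM and Irf8 lowest at 8.17 ± 1.00 TPM. Among ubiquitin genes and shuttles, the shuttle Ubqln2 was lowest at 5.10 ± 0.605 TPM.

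The only test the design allows asks whether a gene's counts differed between the libraries beyond counting noise. With a chi-square test on estimated counts and Benjamini-Hochberg adjustment over 13949 genes with at least 30 counts, 27 of 48 proteasome genes were called at an adjusted p under 0.05. Over all genes 57.2% were called, a share near that of the proteasome genes. The statistic of the median gene was 6.45 times the value expected from counting noise. After division by that factor 4.45% of all genes were called and 0 of 48 proteasome genes, with 5 at an unadjusted p under 0.05. Without library 2 the uncorrected count was 9 members, beside 27.5% of all genes tested. Without library 1 it was 23, beside 43.8%, and without library 3 it was 22, beside 42.3%.

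The lid subunit Psmd11 came nearest to a call, with 1215, 1607 and 1266 normalised counts and an adjusted p of 0.105 after the division (chi-square test, all genes). The scaffold Psmd2 came next, with 3437, 3848 and 3175 normalised counts. Library 2 was highest for both. At the other end, Psme2 with 2924, 2947 and 2913 normalised counts and Psmb1 with 2511, 2467 and 2495 differed by 1.012-fold and 1.018-fold. The median ratio of the highest to the lowest library was 1.15 for proteasome genes and 1.27 for all genes tested, and among genes with 500 or more counts it was 1.14 for 46 proteasome genes and 1.18 for all 8136.

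Cap and core subunits were ordered differently across the libraries, which is given as a description, since no test of the difference was run and no subunit was called after the division. Of the 17 cap (19S) subunits, 16 were highest in library 2, 0 were lowest in it, and only Psmd8 was highest elsewhere. Of the 14 constitutive core (20S) subunits, 5 were highest in library 2 and 7 were lowest in it. Over all genes tested, 42.3% were highest in library 2, and 53.1% of those with 500 or more counts. The median log2 ratio of library 2 to library 1 was 0.21 for the cap, -0.03 for the constitutive core and 0.03 for all genes tested. Against library 3 it was 0.19 for the cap, -0.02 for the constitutive core and 0.06 for all genes tested.

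**Figure D5:**
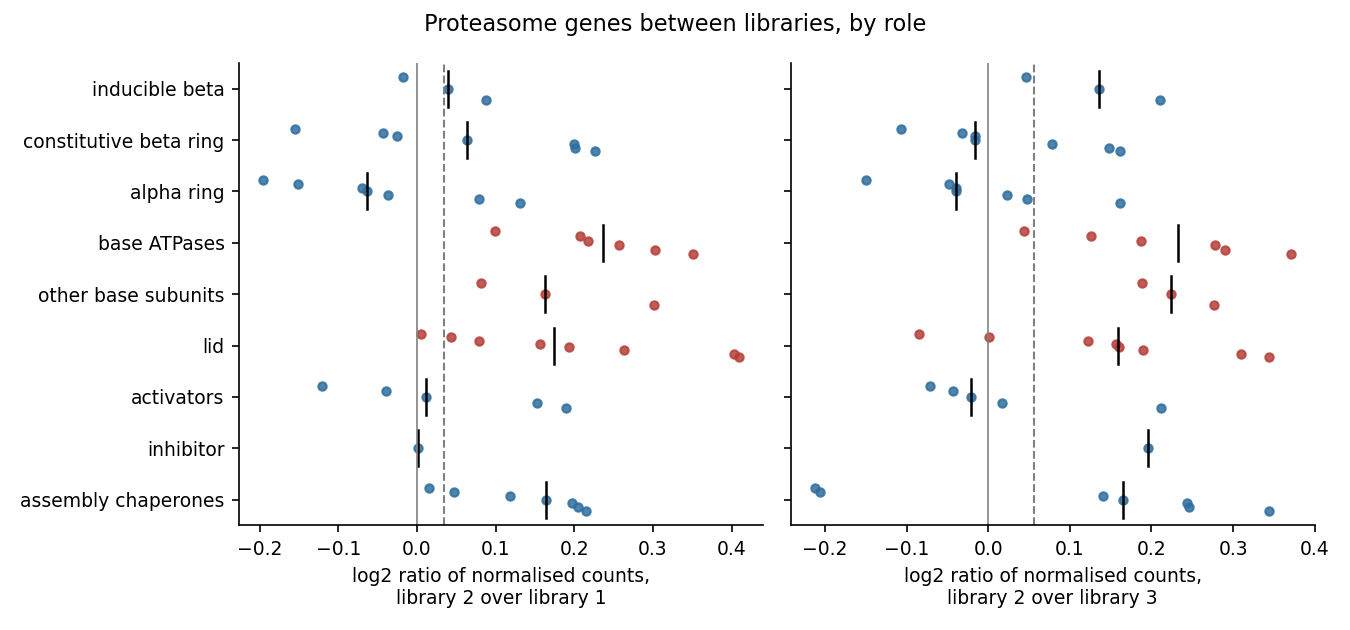
Log2 ratio of normalised counts of library 2 to library 1 (left) and to library 3 (right) for proteasome genes by role, 1 point a gene; black bars are medians, the solid line marks 0 and the dashed line the median of all genes tested. The red cap subunits lie mostly right of the dashed lines, with medians above those of the alpha and constitutive beta rings.

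The second deposited gene table, whole-number counts on an older annotation, gave 14 of 17 cap subunits and 2 of 14 constitutive core subunits as highest in library 2, against 39.7% of all genes tested there. Cap transcripts were longer, with a median length of 1325 bases against 943 bases for the constitutive core. Among genes of 1000 to 2000 bases with 500 or more counts, 61.5% were highest in library 2, and so were 12 of 13 cap subunits and 1 of 6 constitutive core subunits of that length. Among genes under 1000 bases it was 32.5%, and 1 of 1 cap subunit and 4 of 8 core subunits. The part that length or other properties of the libraries play in this pattern was not tested beyond these values. Adrm1 and Sem1, cap subunits without a Psm symbol and named after their values were seen, did not move together: Adrm1 had 134, 169 and 147 TPM and Sem1 had 90, 79.5 and 86.6 TPM.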

How the data were processed

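The authors deposited estimated counts, TPM, FPKM, each transcript's percent of its gene and the posterior SD of the count (a signal of sharing), per gene and transcript on mm10 with GENCODE M21, per the file headers and the labels. The second gene table holds deposited whole-number counts on GENCODE M4, per the labels. No source used here names the aligner, quantifier or strand setting. Levels are deposited TPM without pseudocount. Estimated counts were rounded and compared across the 3 libraries by a chi-square test over all genes with at least 30 counts, scaled by TMM (edgeR 4.0.16, R 4.3.3). The test was tried on simulated data whose only noise was counting noise, a setting that these libraries do not meet. DESeq2 1.42.0 size factors, other count limits, posterior mean TPM, FPKM, the second table and leaving out each library were alternatives, as were sums over protein-coding transcripts. Other steps used Python 3.11.15, pandas 2.3.3 and scipy 1.17.1. The members, lists and motifs were chosen with earlier results of these data known. Named with values in every library are the 6 catalytic genes, Psme1 to Psme4, the highest and lowest member of each role and members under 1 TPM; others, such as Psmb3, Psmc6, Psmd2 and the low-coding members, were named after their values were seen. A total of 14152590 to 16251564 counts per library limits precision. Pseudogenes with a Psm symbol (4, each with a mean over the libraries of at most 0.70 TPM) are no members. Of the effector memory list, Cd44, Ccl5 and S100a4, 3 of 3 stood at 10 TPM or more. A marker list and 1 partner gene are not reported here.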

Additional observations from a re-analysis of the deposited data

How the results depend on the processing

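The ratio of Psmb8 to Psmb5 (5.66) was 3.25 on protein-coding transcripts, 2.62 on their counts without division by length and 0.113 on CCDS transcripts, where it reversed because Psmb8-201 held 2.01% of Psmb8. The ratio of Psmb9 to Psmb6 (0.871) was 0.419, 0.376 and 0.131 under the same settings, 0.944 in the second table and 1.09, reversed, in gene counts without division by length. The ratio of Psmb10 to Psmb7 (3.44) reversed to 0.780 on protein-coding and likewise 0.780 on CCDS transcripts and to 0.886 on protein-coding counts, and was 2.27 in gene counts and 2.38 in the second table. The inducible share (70.8%) was 56.3% on protein-coding transcripts, 53.2% on their counts, 72.1% in gene counts, 68.0% in the second table and 18.2%, reversed, on CCDS transcripts. The ratio of Psme1 to Psme2 (1.30) reversed to 0.773, 0.793 and 0.288 on protein-coding transcripts, their counts and CCDS transcripts, and was 2.56 in the second table and 1.09 with Psme2b added. The median share of the leading transcript was 68.8% by posterior mean TPM. By posterior mean TPM, the role medians were 136 (alpha), 153 (constitutive beta), 199 (inducible), 95.9 (ATPases), 134 (other base), 88.6 (lid), 127 (activators) and 28.1 TPM (chaperones). In counts per library total without division by length they were 103, 77.8, 132, 93.2, 178, 79.3, 189 and 18.1 in the same order. On protein-coding transcripts they were 129 (alpha), 141 (constitutive beta), 89.4 (inducible), 97.0 (ATPases), 84.98 (lid), 118 (activators) and 26.6 TPM (chaperones). The count of members that differed between libraries (27) was 0 after division by the median inflation, beside 4.45% of all genes, and 6 of 48 in the second table, beside 27.3%. It was 24 of 50 without a filter, beside 25.9%, and 26 or 27 under other scalings and count limits, beside 49.3% to 61.9%. Leaving out 1 library gave 5.47 to 5.85 for Psmb8 to Psmb5, 0.838 to 0.899 for Psmb9 to Psmb6, 3.25 to 3.63 for Psmb10 to Psmb7, 70.2% to 71.3% for the inducible share, 1.28 to 1.32 for Psme1 to Psme2 and 9 to 23 members that differed. The settings with CCDS transcripts, protein-coding counts and Psme2b added were chosen after seeing the data, and the cause of the other changes was not tested. No paired analysis was possible because all libraries form 1 group.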
